A study of Rattus norvegicus with 6 samples.

Results

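The genes of the PI3K, AKT, mTOR, FOXO and AMPK signalling pathway were examined in RNA-Seq of testis from diabetic (DM) and non-diabetic (ND) Sprague-Dawley rats, with 3 rats in each group. A list of 41 genes was chosen by gene symbol, and 40 of them were matched to 1 row each among the 35291 rows of the deposited table. Prkag1, which encodes a gamma subunit of AMPK, was not matched, so its level was not analysed here. The DM rats had been given 35 mg/kg of streptozotocin, a toxin of pancreatic beta cells, after a period of high-fat feeding, and RNA was made from the testes after a further 8 weeks. The ND rats had been injected with citrate buffer, and the methods do not say whether they shared the high-fat diet, so that if they did not, diet and diabetes cannot be told apart here. Every library was made from whole testis. The comparison asks whether the transcripts of the listed genes differ in level between the groups. The study reported PI3K-Akt signalling, beside MAPK signalling and others, among the top enriched pathways of a selected set of predicted miRNA targets. That set held only targets that had also passed its screen of mRNAs, in the direction opposite to their miRNA. The list of 41 genes examined here is not that set. The text of the study does not name mTOR, FOXO or AMPK.

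Class I PI3 kinases work as pairs of a catalytic and a regulatory subunit. When insulin or a growth factor binds its receptor, they make a membrane lipid that brings the kinases PDK1 and AKT together, and AKT then phosphorylates its substrates. Phosphorylation by AKT holds back GSK3, the TSC complex and the FOXO transcription factors, and release from TSC lets RHEB switch on mTOR, the kinase that drives protein synthesis through S6 kinase and 4E-BP. AMPK, which is activated by LKB1 when energy is short, works against mTOR. In the testis these kinases act in Sertoli cells, Leydig cells and spermatogonia. RNA-Seq measures the amount of transcript, and the state of phosphorylation is not part of these data.

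The values are FPKM, the fragments scaled to transcript length and to the size of the library, as the authors calculated them. FPKM are not counts, so the number of reads behind each value is unknown. From the steps between low values, the depth relative to the mean library was estimated at 0.966 to 1.09 for the DM rats and 0.893 to 1.02 for the ND rats. The totals of the 6 libraries lay between 453304 and 478211 FPKM. DM and ND rats were set against each other in limma, on the scale of log2(FPKM + 0.1), which understates the change of low genes. The fit took in the 20338 genes whose mean reached 0.5 FPKM. All tests were two-sided, and an exact permutation test of 3 rats against 3 cannot give a p-value below 0.1. Nothing in the labels says more about the separate rats than a replicate number, and the p-values measure only the spread between these samples. In whole tissue, fewer cells of a type and less RNA per cell cannot be told apart.

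Markers of the testis were present. Spermatid markers such as Prm1 and Tnp1 summed to between 8405 and 11137 FPKM. The protocol in the labels mentions adipose tissue, and the 6 adipocyte markers summed to between 6.09 and 8.86 FPKM in all rats. The Leydig cell markers were lower in the DM rats. The 6 of 7 that were matched summed to 27.3 to 57.3 FPKM in the DM rats and 84.5 to 117.2 FPKM in the ND rats, and all 6 had an unadjusted p-value from limma below 0.05. The 8 macrophage markers summed to 27.9 to 33.8 FPKM in the DM rats and 35.1 to 37.4 FPKM in the ND rats, and 4 of them passed that threshold, all lower in the DM rats. Mrc1 made up the greater part of the macrophage sums, and its own groups overlapped, with a log2 fold change of -0.06. The sums of the spermatogonium markers were higher in the DM rats, at 54.1 to 64.8 against 49.6 to 53.8 FPKM, although the means of 4 of the 6 genes were lower. Uchl1 made up the greater part of these sums. Of the 5 spermatogonium markers tested, 2 had an unadjusted p-value from limma below 0.05, in opposite directions. These were Uchl1, higher in the DM rats (log2 fold change 0.34), and Kit, lower (-0.30). The sums of the spermatid, spermatocyte, Sertoli cell, peritubular, endothelial and adipocyte markers overlapped between the groups, and no listed marker that was matched was at 0 in all rats.

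For most genes of the pathway the levels in diabetic and non-diabetic testes overlapped. Of the 40 matched members, 39 passed the filter on low values and were tested, 23 of them higher and 16 lower in the DM rats. After adjustment over all genes tested, limma called 0 members, against 0.0344% of all genes tested. At an unadjusted p-value below 0.05 it placed 1 member, Pik3r1, which is 2.56% of the members tested, against 7.46% of all genes tested. The study had screened transcripts with DESeq2, at a 2-fold change in either direction together with a p-value below 0.05. In the limma fit of gene FPKM used here, a 2-fold change with an unadjusted p-value below 0.05 was met by 0 members and by 1.24% of all genes tested. These counts come from another test and level than those of the study. DM and ND values lay wholly apart for 2 members, Pik3r1 and Stk11, or 5.13% of the members tested, against 13.0% of all genes tested.

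The size of the differences was small. The median log2 fold change of the members was 0.020, against -0.021 over all genes tested, and the median absolute log2 fold change was 0.072, against 0.11. For 35 of the 39 members the absolute log2 fold change was below 0.25. The 95% interval from limma lay within a log2 fold change of -1 to 1 for 36 members, and within -0.5 to 0.5 for 30 members. The 3 members whose interval reached past a 2-fold change were Deptor, Eif4ebp1 and Rps6kb2. The median spread between rats of a group was 0.14 on the log2 scale for the members and 0.18 for all genes tested.

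**Figure D1:**
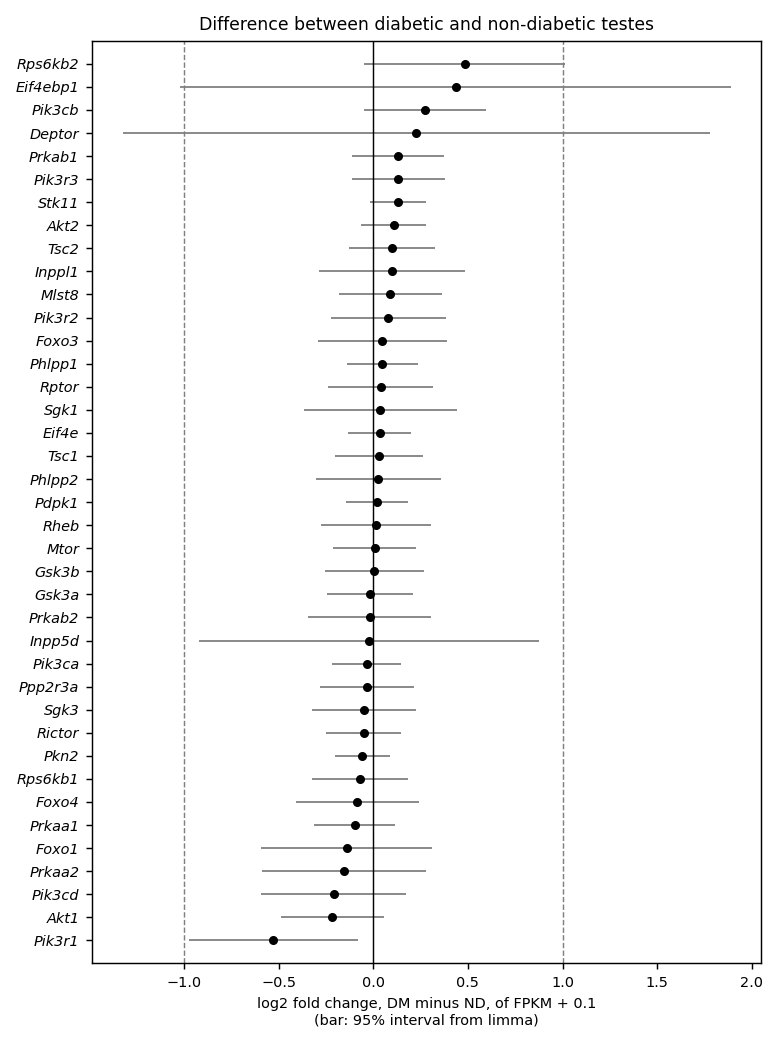
Log2 fold change of the 39 members tested, DM minus ND, on the scale of log2(FPKM + 0.1), with the 95% interval from limma as bars and dashed lines at -1 and 1. Only the interval of Pik3r1 does not include 0, and those of Deptor and Eif4ebp1 are the widest.

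The members differed far more among themselves than between the groups. Pdpk1, the gene of PDK1, was the most abundant, with a mean of 84.3 FPKM over the 6 rats, a level above that of 94.9% of the genes tested. Eif4e, Gsk3b, Stk11, Akt2, Phlpp1 and Pik3r3 followed, each with a mean above that of at least 86.8% of the genes tested. Pik3cg, the gene of the catalytic subunit gamma, which is known from leukocytes, stayed below the filter. It was at 0.428, 0.282 and 0.347 FPKM in the DM rats and at 0.373, 0.570 and 0.293 FPKM in the ND rats. Inpp5d, the gene of the lipid phosphatase SHIP-1, also known from leukocytes, was the lowest member tested, with a mean of 0.575 FPKM. Its log2 fold change was -0.02 with a 95% interval of -0.92 to 0.87.

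**Figure D2:**
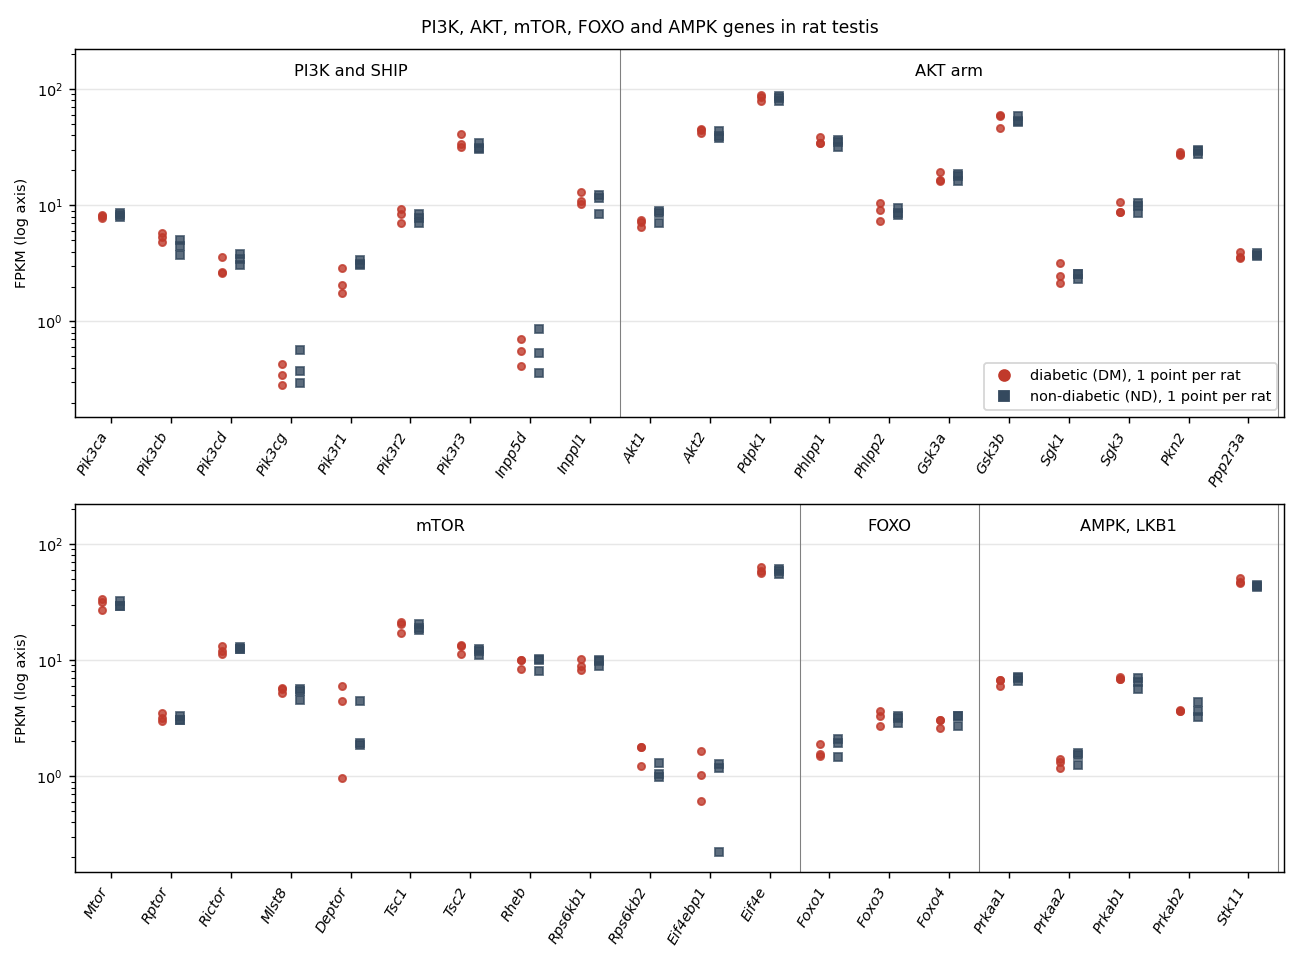
FPKM of the 40 matched members on a log axis, 1 point per rat, with DM rats as circles and ND rats as squares. The levels run from below 1 FPKM for Pik3cg and Inpp5d to above 79 FPKM for Pdpk1, and the groups overlap for every tested member other than Pik3r1 and Stk11.

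Pik3r1 encodes the regulatory subunits that include p85 alpha, which stabilise the catalytic subunits and dock them to activated receptors. It is listed as ENSRNOG00000018903. Its values were 1.76, 2.06 and 2.87 FPKM in the DM rats and 3.38, 3.13 and 3.08 FPKM in the ND rats. Every DM rat lay below every ND rat, and the DM rats were the more spread out. Mean levels were 2.23 ± 0.573 FPKM in DM and 3.20 ± 0.160 FPKM in ND rats (SD, n = 3 in each group). On the log2 scale the difference was -0.53 (95% interval -0.98 to -0.08). The unadjusted p-value from limma was 0.0264 and the adjusted p-value was 0.613. An exact permutation test gave p = 0.1, the smallest possible. Leaving out single rats moved the log2 fold change between -0.72, without DM replicate 3, and -0.38, without DM replicate 1. The unadjusted p-value was below 0.05 in 2 of these 6 fits, those without DM replicate 3 and without ND replicate 3. Across the rats, the sums of the Leydig cell and macrophage markers given above were also lower in each DM rat than in each ND rat, and their part in the lower value of Pik3r1 was not tested.

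The other regulatory subunits did not share this pattern. Pik3r3, the gene of p55 gamma, was at 31.9, 33.5 and 40.9 FPKM in the DM rats and 30.8, 31.1 and 34.6 FPKM in the ND rats. It was the most abundant of the 3 regulatory genes in every rat. The difference on the log2 scale was 0.13 with a 95% interval of -0.12 to 0.38. Pik3r2, the gene of p85 beta, differed by 0.08 on the log2 scale (limma, adjusted p = 0.935). Of the summed FPKM of the 3 genes, Pik3r1 made up 4.19% to 5.65% in the DM rats and 6.89% to 7.94% in the ND rats, while Pik3r3 made up between 72.3% and 80.6% over all 6 rats. These shares describe the same values as above and were given no test.

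The window around the annotated start of Pik3r1 is shown with that of Stk11, because these are the 2 members whose groups did not overlap. Both come from RefSeq (assembly GRCr8), and each is 300 bases long and spans the annotated start. Capitals mark matches on either strand to the motifs searched. The GC box, a common promoter element, was searched as GGGCGG. The CCAAT box, another such element, was searched by the letters of its name. The core of the site that FOXO proteins bind was searched as GTAAACA.
Pik3r1, chr2:34697611-34697910, minus strand: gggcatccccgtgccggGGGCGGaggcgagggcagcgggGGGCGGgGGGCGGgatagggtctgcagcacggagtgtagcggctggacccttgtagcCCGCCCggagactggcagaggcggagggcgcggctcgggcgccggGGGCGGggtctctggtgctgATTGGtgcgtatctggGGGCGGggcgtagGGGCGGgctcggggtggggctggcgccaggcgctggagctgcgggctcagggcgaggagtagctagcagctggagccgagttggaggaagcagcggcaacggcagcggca
Stk11, chr7:10241916-10242215, minus strand: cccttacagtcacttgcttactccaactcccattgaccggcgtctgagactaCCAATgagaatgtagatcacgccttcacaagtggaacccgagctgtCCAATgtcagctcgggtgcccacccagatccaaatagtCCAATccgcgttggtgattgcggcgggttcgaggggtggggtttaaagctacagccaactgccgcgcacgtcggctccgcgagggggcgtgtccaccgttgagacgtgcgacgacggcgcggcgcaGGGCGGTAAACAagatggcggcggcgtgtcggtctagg
The Pik3r1 window held 7 GC boxes, 1 CCAAT box and 0 matches to GTAAACA, and its GC content was 75.3%. The Stk11 window held 1 GC box, 3 CCAAT boxes and 1 match to GTAAACA, which shares 1 base with the GC box, and its GC content was 60.7%. A window was given for 35 of the 41 listed genes, among them Prkag1, whose level was not analysed. A GC box was found in 18 of these 35 (51.4%), against 33.1% of all 33469 windows of the same length. A match to GTAAACA was found in 4 (11.4%), those of Pik3ca, Tsc1, Stk11 and Phlpp1, against 3.78% of all windows. A CCAAT box was found in 10 (28.6%), against 37.5% of all windows. The median GC content was 61.0% for the members and 51.7% for all windows. A match in these letters describes the sequence only, and which start site is used in testis was not measured.

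Among the catalytic subunits, Pik3ca led. It was at 7.80, 8.16 and 8.22 FPKM in the DM rats and 8.25, 8.01 and 8.51 FPKM in the ND rats, a log2 fold change of -0.03 with a 95% interval of -0.22 to 0.15. Pik3cb, which encodes the catalytic subunit beta, was at 5.32, 4.86 and 5.80 FPKM in the DM rats and 4.48, 3.74 and 5.01 FPKM in the ND rats. The groups overlapped through ND replicate 3. Its log2 fold change of 0.27 (95% interval -0.05 to 0.60, adjusted p = 0.736 from limma) was the third highest among the members and did not pass a threshold. Pik3cd, the gene of the catalytic subunit delta, was at 3.59, 2.63 and 2.68 FPKM in the DM rats and 3.43, 3.78 and 3.06 FPKM in the ND rats. The highest DM rat lay within the range of the ND rats. The groups differed on the log2 scale by -0.21 (95% interval -0.59 to 0.17, adjusted p = 0.852 from limma). Pik3cb made up 30.5% to 34.0% of the summed catalytic FPKM in the DM rats and 23.2% to 29.7% in the ND rats. The sums of the 4 catalytic genes overlapped, at 15.9 to 17.1 FPKM in the DM rats and 16.1 to 16.9 FPKM in the ND rats. Inppl1, the gene of SHIP-2, had a log2 fold change of 0.10 with overlapping groups.

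**Figure D3:**
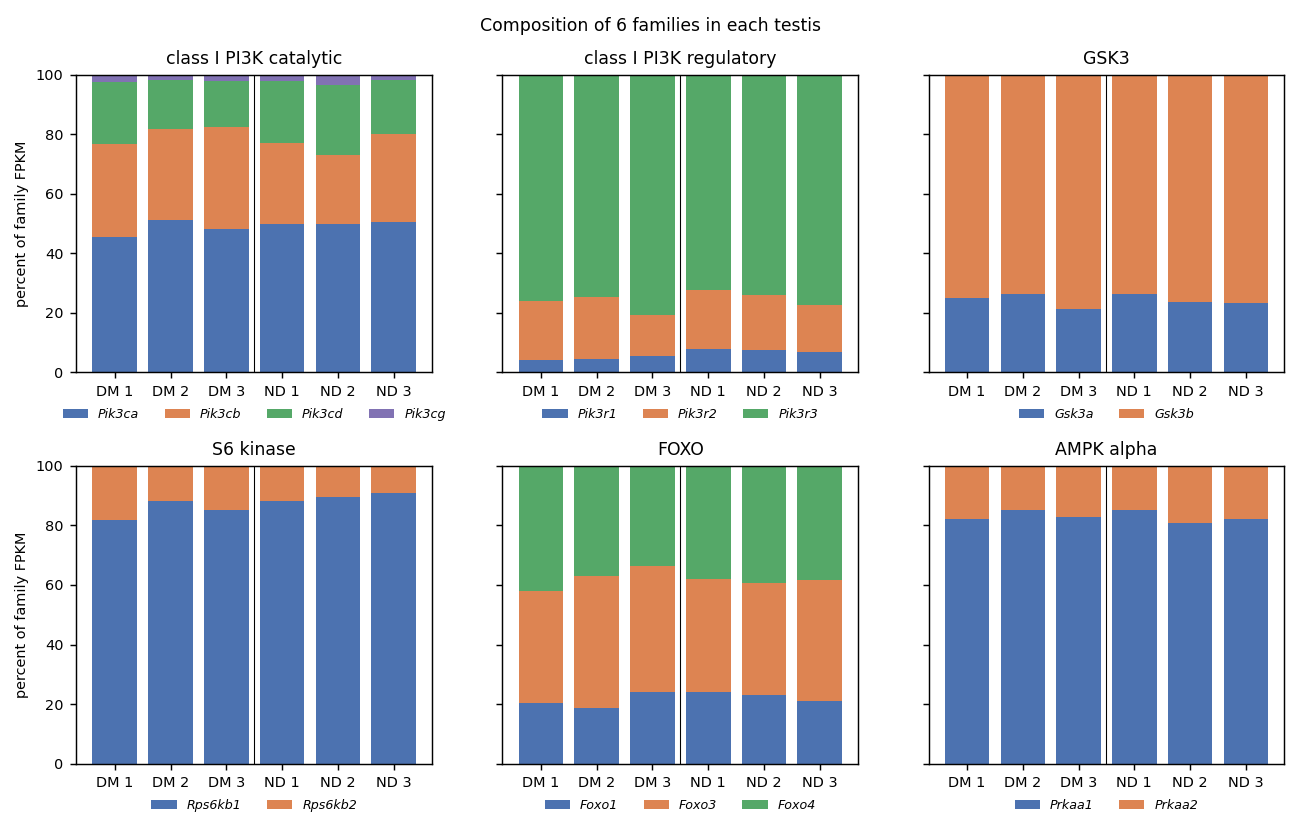
Percent of the summed FPKM of a family that each gene made up, in 6 families, with 1 bar per rat and a line between DM and ND rats. Pik3r3, Gsk3b, Rps6kb1 and Prkaa1 lead their families in every rat, and the Pik3r1 share is lower in each DM rat than in each ND rat.

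Akt2, the AKT isoform known for its role in insulin responses, was more abundant than Akt1 in every rat. It was at 44.3, 45.0 and 41.7 FPKM in the DM rats and 44.1, 39.6 and 38.1 FPKM in the ND rats. In log2 terms the difference was 0.11 with a 95% interval of -0.06 to 0.28, and the groups overlapped. Akt1, the isoform known for growth and survival, was at 7.16, 6.52 and 7.43 FPKM in the DM rats and 8.67, 8.92 and 7.08 FPKM in the ND rats. ND replicate 3 lay among the DM rats. The log2 fold change of Akt1 was -0.22 (95% interval -0.49 to 0.05, adjusted p = 0.758 from limma), and leaving out single rats moved it between -0.32 and -0.16. The unadjusted p-value of Akt1 was below 0.05 in 1 of these 6 fits, at 0.0189 from limma without ND replicate 3.

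The genes around AKT differed little between the groups. Pdpk1 had a log2 fold change of 0.02 with a 95% interval of -0.14 to 0.18. Phlpp1 and Phlpp2, which encode phosphatases that remove a phosphate from AKT, had log2 fold changes of 0.05 and 0.03. Gsk3b, the more abundant of the genes of GSK3, a kinase of glycogen synthesis and Wnt signalling, was at 59.0, 46.1 and 60.2 FPKM in the DM rats and 52.2, 58.5 and 53.3 FPKM in the ND rats. The log2 fold change of Gsk3b was 0.0041 and that of Gsk3a was -0.02. Sgk1 and Sgk3, kinases related to AKT, had log2 fold changes of 0.04 and -0.05. The groups overlapped for each of these genes.

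The AKT group also holds Pkn2 and Ppp2r3a. Pkn2, the gene of a protein kinase related to protein kinase C, was at 27.3, 27.4 and 28.7 FPKM in the DM rats and 29.4, 27.6 and 29.9 FPKM in the ND rats. The groups differed on the log2 scale by -0.06 with a 95% interval of -0.20 to 0.09 (adjusted p = 0.907 from limma). Ppp2r3a, the gene of a regulatory subunit of protein phosphatase 2A, was at 3.54, 3.59 and 3.94 FPKM in the DM rats and 3.77, 3.69 and 3.88 FPKM in the ND rats. Between the groups the log2 fold change was -0.03 with a 95% interval of -0.28 to 0.21 (adjusted p = 0.971 from limma). Both were among the steadiest members, and the groups overlapped for both.

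In the mTOR group, 10 of the 12 members were higher in the DM rats, and 9025 of all 20338 genes tested were higher. An unadjusted p-value below 0.05 from limma was reached by 0 of the 12, against 7.46% of all genes tested. The absolute log2 fold change was below 0.25 for all 12 other than Rps6kb2 and Eif4ebp1. Mtor itself was at 31.5, 33.4 and 26.8 FPKM in the DM rats and 32.1, 29.3 and 29.4 FPKM in the ND rats, a log2 fold change of 0.01 with a 95% interval of -0.21 to 0.23. Its partners Rptor, Rictor and Mlst8 had log2 fold changes of 0.04, -0.05 and 0.09. For Tsc1 and Tsc2, which together restrain RHEB, the values were 0.03 and 0.10, and for Rheb 0.01. Eif4e, the gene of the cap-binding protein, was at 54.7 to 63.6 FPKM over the 6 rats, with a log2 fold change of 0.03 and a 95% interval of -0.13 to 0.20.

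The S6 kinase genes were at different levels. Rps6kb1, the more abundant, was at 8.16, 8.98 and 10.3 FPKM in the DM rats and 9.76, 8.95 and 10.1 FPKM in the ND rats, a log2 fold change of -0.07. Rps6kb2 was at 1.80, 1.22 and 1.80 FPKM in the DM rats and 1.30, 1.04 and 0.990 FPKM in the ND rats. The lowest DM rat lay within the range of the ND rats. The log2 fold change of Rps6kb2, 0.48, was the highest of the members, with a 95% interval of -0.05 to 1.01 (unadjusted p = 0.0696 and adjusted p = 0.712 from limma). Leaving out single rats moved it between 0.39 and 0.66, and the unadjusted p-value was below 0.05 in 1 of these 6 fits, at 0.0233 from limma without DM replicate 2. Rps6kb2 made up 11.9% to 18.1% of the summed FPKM of both genes in the DM rats and 8.96% to 11.7% in the ND rats.

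Eif4ebp1 and Deptor varied more between rats than any other member. Eif4ebp1, the gene of 4E-BP1, which holds back translation until mTOR phosphorylates it, was at 1.03, 1.64 and 0.607 FPKM in the DM rats and 0.221, 1.18 and 1.27 FPKM in the ND rats. Its log2 fold change of 0.43 (95% interval -1.02 to 1.89, adjusted p = 0.927 from limma) rested on ND replicate 1 and was -0.25 without it. The other 4E-BP genes, Eif4ebp2 and Eif4ebp3, were higher in level, and Eif4ebp1 made up 0.772% to 6.22% of the summed FPKM of the 3 genes. Deptor, which encodes a protein that binds and inhibits mTOR, was at 4.45, 0.969 and 5.99 FPKM in the DM rats and 4.48, 1.86 and 1.95 FPKM in the ND rats. High and low rats occurred in both groups. Its log2 fold change was 0.23 with a 95% interval of -1.32 to 1.78, and 0.99 with an unadjusted p-value of 0.0431 from limma without DM replicate 2, the single fit of the 6 with a rat left out that placed it below 0.05. The spread of Deptor within groups was 1.07 on the log2 scale and that of Eif4ebp1 was 0.96.

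The FOXO genes were low, and their groups overlapped. Foxo3 was at 2.73, 3.67 and 3.29 FPKM in the DM rats and 3.27, 3.17 and 2.87 FPKM in the ND rats, a log2 fold change of 0.05 with a 95% interval of -0.29 to 0.39. Foxo4 lay in the same range, at 2.63 to 3.29 FPKM, and its order with Foxo3 differed between rats. Foxo1, known in the testis from spermatogonia, was lower than both in every rat, at 1.49, 1.56 and 1.88 FPKM in the DM rats and 2.08, 1.94 and 1.48 FPKM in the ND rats. Limma estimated a log2 fold change of -0.14 with a 95% interval of -0.59 to 0.31.

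Stk11 encodes LKB1, the kinase that activates AMPK. It is listed as ENSRNOG00000014287. Its values were 46.7, 51.1 and 45.8 FPKM in the DM rats and 43.0, 43.6 and 44.5 FPKM in the ND rats, so that every DM rat lay above every ND rat. Mean levels were 47.9 ± 2.84 FPKM in DM and 43.7 ± 0.734 FPKM in ND rats (SD, n = 3 in each group). On the log2 scale the difference was 0.13, with a 95% interval of -0.02 to 0.28. Limma gave it an unadjusted p of 0.0756 and an adjusted p of 0.722, and the exact permutation test gave p = 0.1. Leaving out single rats moved it between 0.08 and 0.16. When libraries were scaled by median ratios it was 0.16 with an unadjusted p-value of 0.0369 from limma. Stk11, Deptor and the window pair were singled out after their values were seen.

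**Figure D4:**
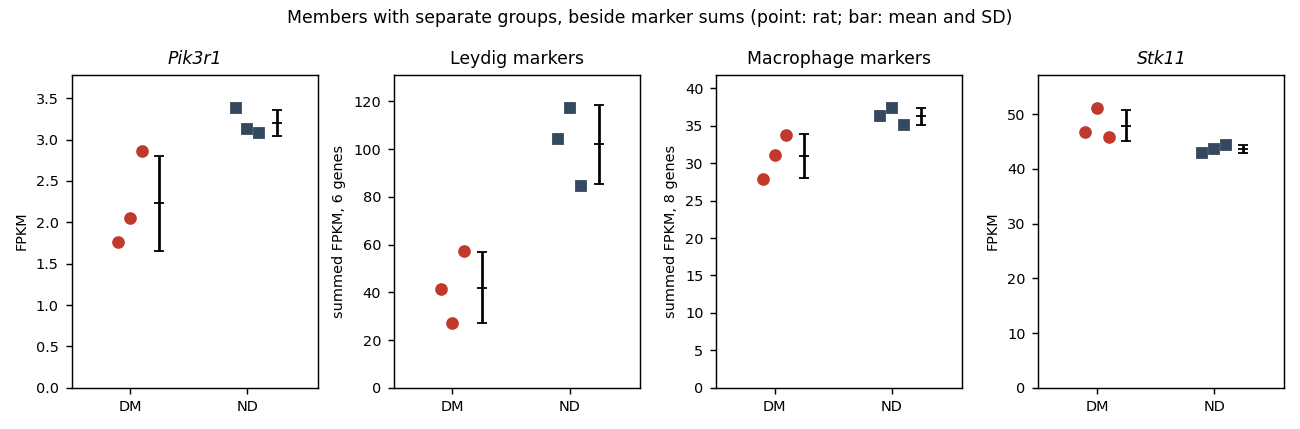
FPKM of Pik3r1 and Stk11, the members whose groups did not overlap, beside the summed FPKM of the Leydig cell and macrophage markers, with 1 point per rat and the mean and SD at the side. All 3 DM rats lie below all 3 ND rats for Pik3r1 and both marker sums, and above them for Stk11.

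The AMPK subunits themselves showed no such separation. Prkaa1, the gene of the catalytic subunit alpha 1, was at 5.998, 6.75 and 6.74 FPKM in the DM rats and 7.14, 6.67 and 7.06 FPKM in the ND rats, a log2 fold change of -0.10 with a 95% interval of -0.31 to 0.12. It made up 80.8% to 85.2% of the summed FPKM of the alpha genes, and Prkaa2 the rest. The log2 fold change of Prkaa2 was -0.16 (95% interval -0.59 to 0.28). Prkab1 and Prkab2, the genes of the beta subunits, had log2 fold changes of 0.13 and -0.02. Prkag2, a gamma subunit gene of the wider AMPK list, was at 30.9 to 34.6 FPKM, above both alpha and both beta genes in every rat, with a log2 fold change of -0.05.

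Wider lists of genes of the same pathways were also counted, and limma called 0 of their genes after adjustment. An unadjusted p-value below 0.05 was reached by 0 of 36 rows tested of the wider mTOR list. This list holds genes of the RAG, LAMTOR, GATOR and sestrin groups, which take part in amino acid sensing, and translation factors. Rps6, the gene of the ribosomal protein that S6 kinase phosphorylates, has 2 rows in it with nearly proportional values, so reads may be shared between copies. The threshold was also reached by 0 of 15 genes of protein phosphatase 2A and the PKN family, by 1 of 12 further PI3K genes (8.33%) and by 1 of 26 genes around AMPK and LKB1 (3.85%), against 7.46% of all genes tested. The first of these was Inpp4b, a phosphatase of PI3K lipids, at 4.61, 5.12 and 5.80 FPKM in the DM rats and 6.62, 5.82 and 6.35 FPKM in the ND rats (log2 fold change -0.27, unadjusted p = 0.0496 and adjusted p = 0.667 from limma). Groups of Inpp4b lay side by side without overlap. The second was Mark4, a kinase of microtubules that LKB1 activates, at 14.4 to 16.3 FPKM in the DM rats and 17.3 to 18.3 FPKM in the ND rats, which differed by -0.19 on the log2 scale (limma, adjusted p = 0.649). Under the 15 alternatives the unadjusted p-value was below 0.05 in 6 for Inpp4b and in 7 for Mark4, and above it for both with a replicate block (0.0678 and 0.0596). When single rats were left out it was below 0.05 in 2 of 6 fits for Inpp4b and in 1 of 6 for Mark4. The median log2 fold changes of these lists were -0.0098 for mTOR, 0.02 for protein phosphatase 2A and PKN, -0.09 for PI3K and 0.01 for AMPK and LKB1.

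The genes listed as FOXO targets were lower in the DM rats more often than higher. Of the 16 genes, 15 were tested, and 13 of these were lower and 2 higher in the DM rats, while over all genes tested 11313 were lower and 9025 higher. Their median log2 fold change was -0.14 against -0.021 over all genes tested. An unadjusted p-value below 0.05 from limma was reached by 4 genes, which is 26.7% of those tested, against 7.46% of all genes tested. All 4 were lower, and 4.99% of all genes tested were lower at this threshold. The list was chosen with earlier results of these data known. DM and ND values lay wholly apart for 5 genes of the list, or 33.3%, against 13.0% of all genes tested. Adjusted over all genes tested, limma called 0 of them.

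Cat, the gene of catalase, which breaks down hydrogen peroxide, was at 2.41, 2.24 and 2.34 FPKM in the DM rats and 4.07, 4.14 and 3.65 FPKM in the ND rats. The groups lay far apart against their own spread, with means of 2.33 ± 0.0823 FPKM in DM and 3.95 ± 0.267 FPKM in ND rats (SD, n = 3 in each group). Catalase transcripts differed by -0.74 on the log2 scale, with a 95% interval of -1.01 to -0.46 (unadjusted p = 0.000377 and adjusted p = 0.190 from limma). With the fit limited to protein-coding genes, Cat had an adjusted p-value of 0.0407. Sod2, the mitochondrial superoxide dismutase gene, was at 12.5, 12.2 and 13.6 FPKM in the DM rats and 14.1, 15.5 and 16.4 FPKM in the ND rats, which gave a log2 fold change of -0.26 and an adjusted p of 0.565 in limma. Pdk4, the gene of a kinase that slows pyruvate oxidation, was at 0.956, 0.779 and 0.751 FPKM in the DM rats and 1.30, 1.64 and 1.08 FPKM in the ND rats. Its log2 fold change was -0.62 (adjusted p = 0.636 from limma). The insulin receptor gene Insr, named because it completes the 4 genes, differed by -0.43 on the log2 scale (limma, adjusted p = 0.666). Every DM rat lay below every ND rat for each of the 4 genes, as it did for the Leydig cell and macrophage marker sums, and the part of those cells in these values was not tested. When single rats were left out, between 1 and 3 of the genes of the list had an unadjusted p-value below 0.05, and Cat was among them in all 6 fits.

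**Figure D5:**
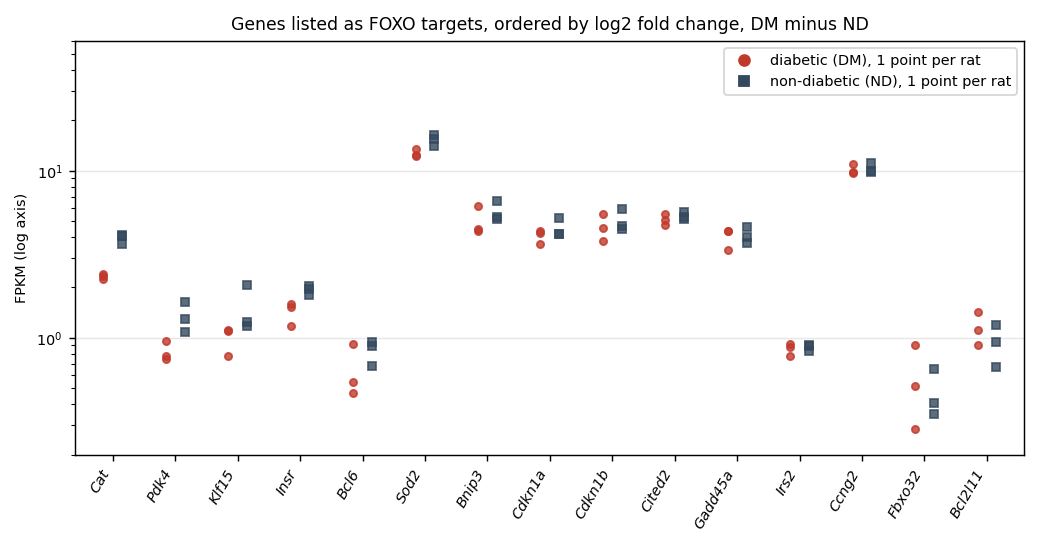
FPKM of the 15 tested genes listed as FOXO targets, on a log axis, with 1 point per rat and genes ordered from the lowest to the highest log2 fold change, DM minus ND. Cat, Pdk4, Klf15, Insr and Sod2 have groups that do not overlap, each lower in the DM rats.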

How the data were processed

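Testis RNA of 3 DM and 3 ND rats was analysed. Libraries had been sequenced as paired ends on an Illumina HiSeq. The protocol in the labels names poly(A) isolation but then speaks of either fraction, and the sample titles name circRNA, lncRNA and mRNA, so which fraction was sequenced is unclear. Per the labels and the study's methods, the authors ran FastQC, screened against rRNA with BWA, aligned with STAR, assembled transcripts with StringTie and deposited FPKM, with 1 column per rat. Tool versions and the genome build are not given in the sources used here. FPKM already divide out transcript length and depth, so the absolute depth per sample and the counting error of low genes are unknown, and a count test was not run.

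From the deposited FPKM, log2(FPKM + 0.1) was tested with limma 3.58.1 in R 4.3.3 (lmFit, then eBayes with its trend option), DM against ND, two-sided, in the 20338 genes that averaged 0.5 FPKM or more, with Benjamini-Hochberg adjustment over all of them and a threshold of 0.05. Exact permutation tests used scipy 1.17.1. The fit was tested on simulated data. Members were found by gene symbol. The members and the lists were chosen with earlier results of these data known. Full values are given for members with an unadjusted p-value below 0.05, for the 3 highest and 3 lowest log2 fold changes, and for Pkn2 and Ppp2r3a, with values per rat for the leading gene of each family, and of the wider lists for at most 3 genes in each direction below that p-value. Values of Pik3cg, Mtor, Foxo1, Deptor, Stk11 and Insr were added after they were seen. No libraries were identical. Promoter windows came from RefSeq (GRCr8), and their coordinates are of that assembly only. Alternatives were other pseudocounts, filters and scalings, eBayes without the trend, a replicate block, protein-coding genes only, and each rat left out in turn.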

Additional observations from a re-analysis of the deposited data

How the results depend on the processing

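Limma called 0 members after adjustment under all 15 alternatives. A 2-fold change with an unadjusted p-value below 0.05 in limma was met by 0 members under any of them. The lowest adjusted p-value of any member under any setting was 0.345. The log2 fold change changed sign under at least 1 alternative for 22 of the 39 members tested. The count of members at an unadjusted p-value below 0.05 was 1 and became 2 under median-ratio scaling (with Stk11), with eBayes without the trend (with Rps6kb2), with protein-coding genes only (with Rps6kb2) and in the fit with a replicate block (with Pik3cb). Leaving out single rats gave 0 to 3: the count was 0 without DM replicate 1, ND replicate 1 or ND replicate 2, 2 without DM replicate 2 (Deptor and Rps6kb2) and 3 without ND replicate 3 (Pik3cb, Pik3r1 and Akt1). Pik3r1 was lower in the DM rats under all 15 alternatives and had an unadjusted p-value below 0.05 in 11 of them, with adjusted p-values from 0.345 to 0.892. Eif4ebp1 ran from -0.25 without ND replicate 1, a change of sign, to 0.80 without ND replicate 3. The count of FOXO targets was 4, with 2 under the replicate block and 1 to 3 when single rats were left out. It was 1 without DM replicate 2 and 1 without ND replicate 2. The adjusted p-value of Cat ran from 0.0407 to 0.566 over the alternatives. Over all genes, limma called 7 after adjustment, against 3 with no filter, 12 without the trend, 4 with the replicate block, 36 among protein-coding genes only and 0 to 14 when single rats were left out. The causes of these shifts were not tested.

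The rats of the groups share only a replicate number. The deviations of same-numbered rats correlated at 0.0153 to 0.106, and those of rats with different numbers at -0.126 to 0.0318. The highest values, 0.106 and 0.0979, were those of the rats numbered 1 and of the rats numbered 3. DM replicate 2 correlated best with ND replicate 3, at 0.0318. The numbers were taken to name different animals, so the main fit did not treat them as pairs, and a replicate block was run as an alternative. With 3 rats a group, the intervals of Deptor and Eif4ebp1, the members that varied most between rats, include changes of over 2-fold in either direction.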
